A study of Mus musculus with 4 samples.

Results

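The 9 genes described here, Spp1, Gpnmb, Lgals3, Igf1, Cd44, Lyz2, Fabp5, Cd63 and Cd9, are genes that brain myeloid cells carry when they turn reactive, and they were taken by symbol from the 46983 genes of single-nucleus RNA sequencing (snRNA-Seq) of mouse brain after permanent middle cerebral artery occlusion (MCAO). They were selected on earlier results of these same libraries, among them their levels in microglia after injury relative to sham, so every level below is a description and carries no test. Each of the 4 libraries, labelled sham control, 1 day, 3 days and 7 days, held nuclei of 3 pooled forebrain hemispheres of male C57Black/6 mice aged 3 months, so each group had 1 library, there were no biological replicates, and every interval covers counting error only. In the injured groups the artery had been coagulated and cut and was not reopened, and the treatment protocol speaks of small infarcts in parietal cortex. For the control, that protocol speaks of intact cortex while the design text speaks of forebrain hemispheres throughout. In the sham library 357 nuclei carried markers of striatal projection neurons. The study's breakdown of nuclei by time point fitted the deposited libraries only with day 3 and day 7 exchanged. Its description of reactive microglia by day does not call for such an exchange, and which of the measures holds was not settled. The deposited labels were kept, so each statement on day 3 or day 7 is on the library with that label.

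Osteopontin, encoded by Spp1, is a secreted phosphoprotein that binds integrins and CD44, and it is among the genes best known to appear in microglia and macrophages of injured brain. GPNMB is a transmembrane glycoprotein of lysosomes and of phagocytes loaded with lipid. The remaining members were galectin 3 (Lgals3), a secreted lectin; insulin-like growth factor 1 (Igf1); CD44, a receptor for hyaluronan and osteopontin; lysozyme 2 (Lyz2), an antibacterial enzyme of myeloid cells; FABP5, a cytosolic carrier of fatty acids; and CD63 and CD9, membrane proteins of the tetraspanin family found in late endosomes, exosomes and at the cell surface. None of these genes belongs to microglia alone, since astrocytes, oligodendrocytes, neurons and vessel cells are each known to use some of them.

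All 9 members were present once in the files under their Ensembl identifiers, and their positions come from the GENCODE vM21 annotation of GRCm38. Spp1 lies at chr5:104435118-104441050 on the plus strand and Gpnmb at chr6:49036546-49070929, also on the plus strand. Lgals3 was at chr14:47367751-47386160 (plus), Igf1 at chr10:87858265-87937042 (plus), Cd44 at chr2:102811141-102901665 (minus), Lyz2 at chr10:117277331-117282321 (minus), Fabp5 at chr3:10012548-10016607 (plus), Cd63 at chr10:128900989-128912822 (plus) and Cd9 at chr6:125460266-125494791 (minus). Counts cover exons and introns of the whole gene, and the strand used in counting is not given in the sources used here. Igf1 overlaps the antisense gene Igf1os, which held 23 unique molecular identifiers (UMIs) in nuclei, and Cd9 overlaps a pair of transcripts on the other strand with 141 UMIs, so some reads of these loci could belong to either gene. Lyz2 has a close paralog, Lyz1, which held 0 UMIs in microglia-like nuclei of every library.

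The regions before the start sites of Spp1, Gpnmb and Lyz2 are shown because these members had the 3 largest log2 ratios of day 3 to sham in microglia-like nuclei, 4.38, 4.62 and 4.68. Each is the 250 bases before a start site annotated by RefSeq on GRCm38.p6, read on the gene's own strand, with capitals marking the letters of a searched motif. The motifs, looked for on both strands, were the E-box, with the letters CACGTG, the core of the M-box, with CATGTG, the AP-1 motif, with TGANTCA, the PU.1 motif, with GAGGAAGT, and the TATA box, with TATAAA.
Spp1, chr5:104434861-104435110, plus strand: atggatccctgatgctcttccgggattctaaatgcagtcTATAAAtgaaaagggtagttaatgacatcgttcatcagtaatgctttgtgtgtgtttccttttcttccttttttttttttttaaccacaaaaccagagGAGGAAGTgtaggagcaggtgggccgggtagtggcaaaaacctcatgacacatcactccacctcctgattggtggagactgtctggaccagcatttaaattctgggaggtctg
Gpnmb, chr6:49036268-49036517, plus strand: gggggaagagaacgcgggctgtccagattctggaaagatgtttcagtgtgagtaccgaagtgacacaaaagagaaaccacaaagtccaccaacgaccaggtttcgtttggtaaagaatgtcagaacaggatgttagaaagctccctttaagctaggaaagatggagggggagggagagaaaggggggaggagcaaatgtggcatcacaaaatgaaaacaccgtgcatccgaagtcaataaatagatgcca
Lyz2, chr10:117282273-117282522, minus strand: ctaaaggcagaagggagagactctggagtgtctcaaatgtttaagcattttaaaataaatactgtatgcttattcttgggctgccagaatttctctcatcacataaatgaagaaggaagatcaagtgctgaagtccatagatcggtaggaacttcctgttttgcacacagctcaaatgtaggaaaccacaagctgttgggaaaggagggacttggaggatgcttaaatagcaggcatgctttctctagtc
In this Spp1 window the TATAAA letters lay 211 to 206 bases and the GAGGAAGT letters 113 to 106 bases before the start, and no searched letters were present in the Gpnmb and Lyz2 windows. RefSeq lists another Spp1 start, whose window at chr5:104435942-104436191 held none of these letters either. Among 32851 RefSeq promoter windows 2.44% held GAGGAAGT, 12.4% TATAAA, 6.75% TGANTCA, 6.02% CACGTG and 12.3% CATGTG. RefSeq windows were found for 8 of the 9 members. Igf1 held a TGANTCA match 37 to 31 bases before its start and Cd9 a CATGTG match 38 to 33 bases before its start on the other strand. A match of letters is a description of the sequence and not of a bound site.

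The libraries held between 23285489 and 42963698 UMIs, of which 51.9% to 60.4% lay in called nuclei and 38.9% to 45.1% in droplets of 1 to 1000 UMIs, which hold free RNA. Whether some of these droplets also held nuclei of few UMIs was not tested. Calling gave 2152, 1027, 3159 and 1590 nuclei in sham, day 1, day 3 and day 7, with a median of 6409.5, 11035, 5466 and 7040.5 UMIs, so the day 1 nuclei were the deepest. Any pair of libraries shared 0 to 3 barcodes of nuclei. Nuclei were clustered without the members and the genes of the lists below, and classes were named by markers. Microglia-like nuclei numbered 89, 46, 190 and 96 in the same order, or 4.21%, 4.51%, 6.17% and 6.11% of nuclei after doublets had been removed. They were led by Inpp5d, Ly86, Fyb, Dock8, Runx1, Apbb1ip and Csf1r, genes of microglia and macrophages, and 7, 7, 9 and 6 of these nuclei lay in a small cluster that carried oligodendrocyte markers too. Their total was 287212, 267818, 444112 and 305958 UMIs and their median 1800, 3847.5, 1725.5 and 2049.5 UMIs. Levels are in counts per 1000000 UMIs (CPM), with UMIs summed over all nuclei of a class in a library and divided by the total of that class.

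In microglia-like nuclei of the day 3 library, 8 of the 9 members stood at least 2-fold above sham, against 9.72% of the 7014 genes with at least 20 UMIs in the pair of libraries. Between day 3 and sham the members' median log2 ratio was 3.40 and that of all genes tested 0.14. At day 1 the count was 6 of 9 (7.09% of all genes) with a median of 1.62, and at day 7 it was 7 of 9 (6.29%) with a median of 1.84. Of the 9, 4, 8 and 6 held 20 UMIs or more in the pair at day 1, day 3 and day 7, and a sum below 3 UMIs was set to 3 before a log2 ratio was taken. Because the members were chosen for this pattern, the counts say nothing beyond it. Summed over the 9 genes the level was 216, 649.7, 1918 and 1141 CPM in sham, day 1, day 3 and day 7. The exact 95% Poisson limits were 166 and 277 CPM for sham, 557 and 754 CPM for day 1, 1792 and 2052 CPM for day 3, and 1024 and 1267 CPM for day 7, so no 2 of the libraries overlapped. Taking nuclei by their own marker UMIs, with no clustering, gave 198, 192, 424 and 235 nuclei. Of these 89, 46, 189 and 96 lay in the microglia-like class, so most were other nuclei. Over this wider set the level was 159, 152, 467 and 291 CPM, and day 1 was not above sham. In it 3, 6 and 4 members stood at least 2-fold above sham at day 1, day 3 and day 7.

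**Figure D1:**
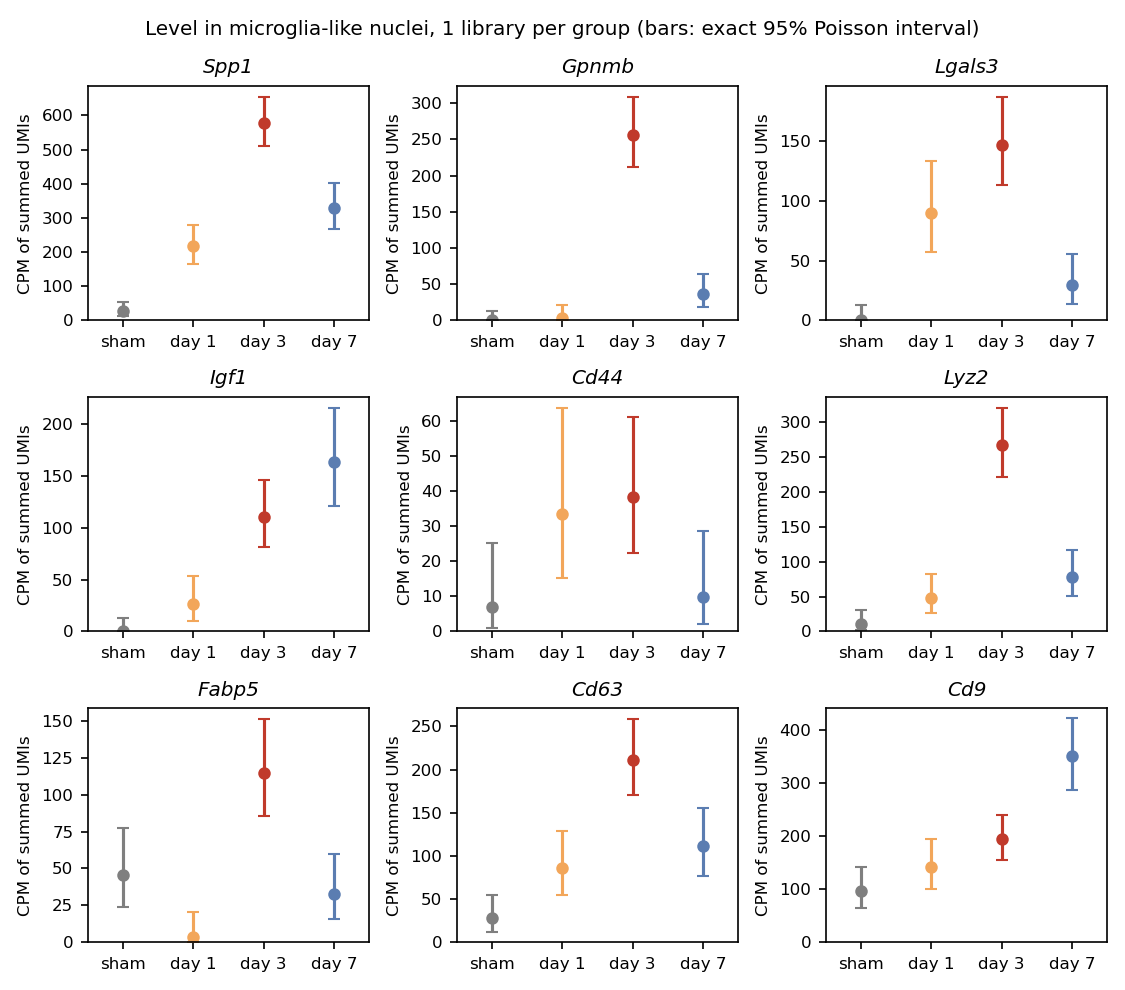
Level of each member in microglia-like nuclei, in CPM of summed UMIs (vertical axis from 0, scaled per gene), for the 4 libraries (horizontal axis), with points for the level and bars for the exact 95% Poisson interval. Spp1, Gpnmb, Lgals3, Lyz2, Fabp5 and Cd63 stand highest in the day 3 library, and Igf1 and Cd9 in the day 7 library.

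Spp1, the secreted ligand, stood at 27.9 CPM in sham from 8 UMIs, all in 1 nucleus. It reached 217 CPM at day 1 (58 UMIs in 7 nuclei), 579 CPM at day 3 (257 UMIs in 56 nuclei) and 330.1 CPM at day 7 (in 21 nuclei). Sham had an upper limit of 54.9 CPM, and the limits were 164 and 280.0 CPM for day 1, 510.1 and 654 CPM for day 3, and 269 and 401 CPM for day 7. Sham was thus lowest and day 3 highest, while day 1 and day 7 lay between them and overlapped. Relative to sham the ratio was 7.78 (exact 95% interval 3.70 to 18.9) at day 1, 20.8 (10.4 to 48.6) at day 3 and 11.9 (5.79 to 28.2) at day 7. How these UMIs spread over nuclei differed between the libraries. The fullest nucleus held 62.1% of them at day 1, 10.9% at day 3 and 31.7% at day 7.

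Gpnmb had no UMI in the 89 sham nuclei, where 3 UMIs would have been 10.4 CPM. It stood at 3.73 CPM at day 1 (1 UMI), 257 CPM at day 3 (114 UMIs in 26 nuclei, interval 212 to 308) and 36.0 CPM at day 7 (11 UMIs in 5 nuclei, 17.9 to 64.3). Counted against a floor of 3 UMIs in the sham class sum, the day 3 level was 24.6-fold and the day 7 level 3.44-fold higher. The exact lower limit of the day 3 ratio was 19.7. The day 7 log2 ratio of Gpnmb, 1.78, was 0.92 without the fullest nucleus of each library and 0.31 with nuclei thinned to 1000 UMIs. Among all genes in microglia-like nuclei, ranked by the lower limit of the ratio of day 3 to sham, Gpnmb came first, Lgals3 next and Spp1 after it, followed by Plin2, which coats lipid droplets, and Fn1, which encodes fibronectin. By the same rank at day 7 the leading genes were Igf1, H2-Eb1, Cd74, Spp1 and F630028O10Rik. The fullest nucleus of each gene held 96.4% of the H2-Eb1 UMIs there, 83.3% of Cd74 and 61.9% of F630028O10Rik.

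Lgals3, the galectin, likewise had 0 UMIs in sham. Its level was 89.6 CPM at day 1 (24 UMIs), 146 CPM at day 3 (65 UMIs in 28 nuclei, interval 113 to 187) and 29.4 CPM at day 7 (9 UMIs in 8 nuclei, 13.5 to 55.8). These were 8.58-fold, 14.0-fold and 2.82-fold higher than a floor of 3 UMIs in sham, and the exact lower limit of the day 3 ratio was 11.1. The day 1 level rested on a single nucleus with 91.7% of its UMIs, whereas the day 3 UMIs were spread over many nuclei. At day 7 the log2 ratio went from 1.49 to -0.11 with nuclei thinned to 1000 UMIs, where both sums were at or under the floor of 3 UMIs, so it gives no direction. In another draw of the thinning Lgals3 was found in 4 of 96 day 7 and 0 of 89 sham nuclei.

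Igf1, the growth factor, was the member that stood highest at day 7 after having no UMI in sham. It had 26.1 CPM at day 1 (7 UMIs, 85.7% of them in 1 nucleus), 110.3 CPM at day 3 (49 UMIs in 23 nuclei, 81.6 to 146) and 163 CPM at day 7 (50 UMIs in 15 nuclei, 121 to 215). The day 3 and day 7 intervals overlapped, and both levels lay above the upper limit of 12.8 CPM that sham allowed. Against a floor of 3 UMIs in sham they were 10.6-fold and 15.7-fold higher. The exact lower limits of the ratios to sham were 8.27 and 12.3.

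Lyz2, the lysozyme, stood at 10.4 CPM in sham (3 UMIs), 48.5 CPM at day 1 (13 UMIs), 268 CPM at day 3 (119 UMIs in 46 nuclei) and 78.4 CPM at day 7 (24 UMIs in 17 nuclei). Its day 3 interval, 222 to 321 CPM, lay above all other libraries. The ratios to sham were 4.65 (1.28 to 25.4), 25.7 (8.57 to 126) and 7.51 (2.28 to 39.0). At day 1, 92.3% of its UMIs came from 1 nucleus.

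Cd44, the receptor, was sparse. It had 6.96 CPM in sham (2 UMIs), 33.6 CPM at day 1 (9 UMIs in 3 nuclei), 38.3 CPM at day 3 (17 UMIs in 14 nuclei) and 9.81 CPM at day 7 (3 UMIs). The ratio of day 3 to sham was 5.50 with an interval of 1.30 to 49.1, and at day 1 and day 7 the intervals held 1. The difference rested on few UMIs. When every nucleus was thinned to 1000 UMIs the log2 ratio of day 3 to sham went from 1.87 to -0.09. The sham sum was then set to the floor of 3 UMIs, so the sign gives no direction. In another draw of the thinning Cd44 was found in 7 of 190 day 3 and 0 of 89 sham nuclei.

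Fabp5, the fatty acid carrier, was the member that was lower than sham at day 1. It stood at 45.3 CPM in sham (13 UMIs in 12 nuclei), 3.73 CPM at day 1 (1 UMI), 115 CPM at day 3 (51 UMIs in 32 nuclei) and 32.7 CPM at day 7 (10 UMIs in 10 nuclei). Day 3 was higher than sham by a ratio of 2.54 (1.36 to 5.09), day 1 was lower at 0.0825 (0.00194 to 0.549), and day 7 could not be told from sham (0.722, 0.283 to 1.78). With free RNA subtracted, the Fabp5 sums of sham and day 1 both fell under the floor of 3 UMIs. The log2 ratio of day 1, -2.01, was then 0.07 or 0.10, values that give no direction. At day 3 Fabp5 stood at least 2-fold above sham in 9 of 14 alternatives, with log2 ratios from 0.37 to 2.96 around the 1.34 reported.

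Of the tetraspanins, Cd63 stood at 27.9 CPM in sham (8 UMIs), 85.9 CPM at day 1 (23 UMIs), 212 CPM at day 3 (94 UMIs in 65 nuclei) and 111 CPM at day 7 (34 UMIs in 22 nuclei). Its ratios to sham of 3.08 (1.33 to 7.97), 7.60 (3.70 to 18.1) and 3.99 (1.81 to 9.98) did not rest on single nuclei. They were lower in nuclei taken by their own marker UMIs with no clustering, most of which lay outside the microglia-like class. There the log2 ratio of Cd63 was -0.80 at day 1, 0.85 at day 3 and 0.19 at day 7, in place of 1.62, 2.93 and 2.00. With the same nuclei Cd9 at day 7 went from 1.84 to 0.56. Cd9 stood at 97.5 CPM in sham (28 UMIs), 142 CPM at day 1 (38 UMIs), 194 CPM at day 3 (86 UMIs in 61 nuclei) and 349.7 CPM at day 7 (107 UMIs in 49 nuclei). The Cd9 ratios for day 1, day 3 and day 7 were 1.46 (0.870 to 2.46), 1.99 (1.28 to 3.16) and 3.59 (2.35 to 5.65), and the day 7 interval of its level, 287 to 423 CPM, lay above all other libraries. Like Igf1, Cd9 was thus highest in the library labelled day 7.

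Day 1 rested on few nuclei. When the nucleus with the most member UMIs was left out of each library, the log2 ratio of day 1 to sham went from 3.10 to 0.12 for Lgals3, from 2.22 to 0.12 for Lyz2 and from 1.69 to 0.53 for Cd44. The 0.12 of Lgals3 and Lyz2 came from sums at or under the floor of 3 UMIs. The count of members at least 2-fold above sham was then 3 at day 1, 9 at day 3 and 6 at day 7, with medians of 0.41, 3.40 and 1.81. For Spp1 the same step raised the log2 ratio of day 1 from 2.96 to 4.39, because the nucleus left out of sham held all 8 of its UMIs. Over 14 alternatives, Spp1 in every injured library, Gpnmb, Lgals3, Igf1 and Lyz2 at day 3, and Igf1 and Lyz2 at day 7 stood at least 2-fold above sham in all 14. At day 1 Lgals3 did so in 12, Lyz2 in 11, Cd44 in 10 and Igf1 in 8 of the 14.

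A UMI of Spp1, Gpnmb, Lgals3 or Igf1 was found in 1 of 89 sham microglia-like nuclei (1.12%, exact Clopper-Pearson 95% interval 0.0284 to 6.10), 11 of 46 at day 1 (23.9%, 12.6 to 38.8), 71 of 190 at day 3 (37.4%, 30.5 to 44.7) and 31 of 96 at day 7 (32.3%, 23.1 to 42.6). The intervals of all 3 injured libraries lay above that of sham and overlapped each other. Shares depend on depth, and thinned to 1000 UMIs per nucleus they were 1.12%, 6.52%, 28.9% and 20.8%, at which depth the day 1 interval (1.37 to 17.9) met that of sham. Droplets also carry free RNA of these genes. Glutamatergic neuron-like nuclei, a class that should lack most of them, held such a UMI in 3.46%, 11.6%, 20.8% and 8.96% of nuclei at a median of 9623, 15631, 8673 and 10222.5 UMIs, and in 0.216%, 0.830%, 3.30% and 0.867% once thinned. Thinned shares in oligodendrocyte-like nuclei were 0.625%, 2.50%, 9.38% and 1.18% and in astrocyte-like nuclei 1.37%, 1.79%, 7.62% and 4.23%. At equal depth the microglia-like share was thus higher than in these 3 classes in the day 3 library, with an interval of 22.6 to 36.0% against upper limits of 4.83%, 12.5% and 11.9%.

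**Figure D2:**
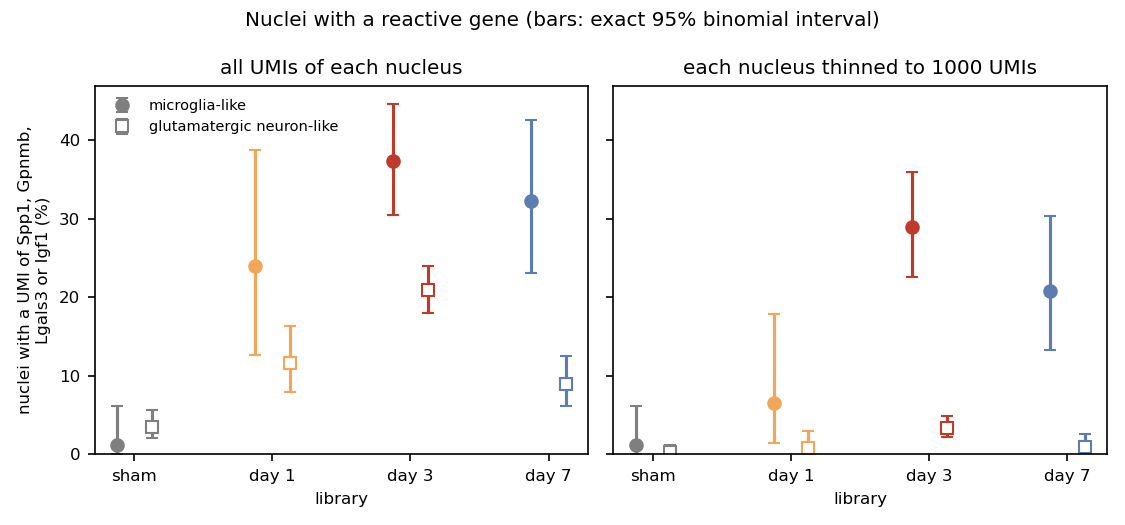
Share of nuclei (vertical axis, percent, from 0) with at least 1 UMI of Spp1, Gpnmb, Lgals3 or Igf1 in the 4 libraries (horizontal axis). The left panel takes all UMIs of each nucleus and the right panel nuclei thinned to 1000 UMIs. Filled circles are microglia-like nuclei, open squares glutamatergic neuron-like nuclei, and bars the exact 95% binomial interval. In microglia-like nuclei the thinned share is 28.9% at day 3 and 1.12% in sham, whereas in glutamatergic neuron-like nuclei thinning takes the day 3 share from 20.8% to 3.30%.

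Members were met together in the same nuclei. At least 3 of the 9 were detected in 1 sham nucleus, 7 at day 1, 47 at day 3 and 22 at day 7, and after thinning in 0, 0, 29 and 9. Nuclei with at least 5 members numbered 22 at day 3 and 4 at day 7, and the most in any nucleus was 3, 4, 8 and 6. At the other end, 49 of 89 sham, 12 of 46 day 1, 48 of 190 day 3 and 27 of 96 day 7 nuclei held no member UMI. Member UMIs were unevenly spread, since the 19 fullest of the 190 day 3 nuclei held 56.3% of the 852 member UMIs and the 10 fullest of the 96 day 7 nuclei held 53.6% of 349.

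**Figure D3:**
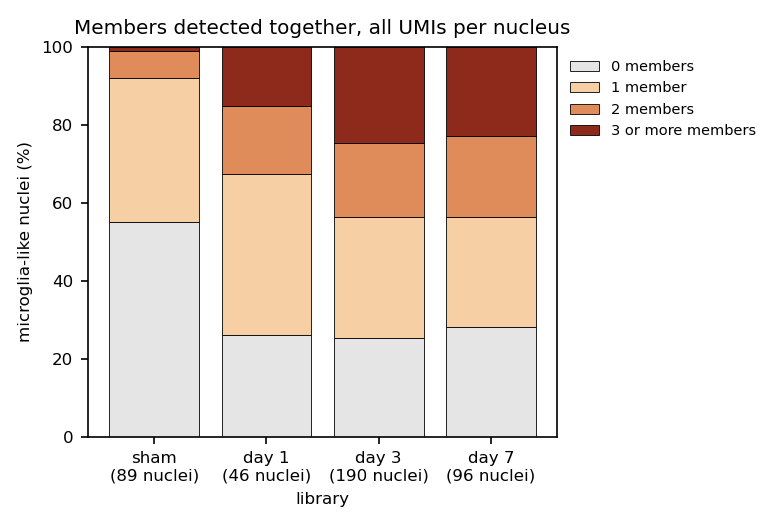
Microglia-like nuclei (vertical axis, percent of the nuclei of each library) by the number of the 9 members with at least 1 UMI, at all UMIs per nucleus, for the 4 libraries (horizontal axis, with the number of nuclei). Nuclei with 3 members or more make up 1.12% in sham, 15.2% at day 1, 24.7% at day 3 and 22.9% at day 7.

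Microglia-like nuclei of the day 3 library were set apart by whether they held a UMI of Spp1, 56 with and 134 without, as a description of what stood with it. The nuclei with Spp1 were deeper, with a median of 2235.5 against 1611.5 UMIs, and a deeper nucleus is more likely to show any gene, so levels are given as CPM and not as UMIs. Gpnmb stood at 577 CPM in nuclei with Spp1 (interval 471 to 699.8) and 41.4 CPM without (20.7 to 74.1). Lgals3 stood at 286 CPM (213 to 376) and 52.7 CPM (28.8 to 88.4), and these 2 were the members that differed most. Lyz2 had 392 and 184 CPM, Cd44 72.8 and 15.1 CPM and Fabp5 185 and 67.8 CPM, with intervals apart in Lyz2, Cd44 and Fabp5 alike. In contrast Igf1 (129 and 97.9 CPM), Cd63 (258 and 181 CPM) and Cd9 (196 and 192 CPM) had overlapping intervals in nuclei with and without Spp1.

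Genes outside the 9 moved with Spp1 in both directions. Apoe, the carrier of lipids, stood at 4566 CPM in day 3 nuclei with Spp1 and 1901 CPM in those without, and Plin2 at 588 and 162 CPM. Genes of resting microglia were lower with Spp1: the purinergic receptor P2ry12 stood at 291 against 655 CPM, the fractalkine receptor Cx3cr1 at 381 against 806 CPM, Csf1r at 409 against 896 CPM and Siglech at 129 against 636 CPM, with no overlap in any of the 4. At day 7, with 21 nuclei holding Spp1 and 75 without, P2ry12 stood at 214 (134 to 324) against 625 CPM (521 to 744), Siglech at 107 against 566 CPM and Igf1 at 349.8 (245 to 484) against 69.0 CPM (37.7 to 116). Igf1 thus went with Spp1 in the day 7 library, whereas in the day 3 library its intervals overlapped. All 11 Gpnmb UMIs of day 7 lay in nuclei with Spp1.

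The name microglia-like rests on RNA markers, which other myeloid cells share in part. The 9 markers of border-associated macrophages summed to 70, 103, 338 and 172 UMIs in microglia-like nuclei of sham, day 1, day 3 and day 7, or 244, 385, 761 and 562 CPM. Lyve1 was at 0 in every library, Cd163 and Pf4 were at 0 in sham and day 1, and F13a1 was higher in day 3 than in sham (68 against 7 UMIs, ratio 6.28, 2.89 to 16.2), as were Mrc1 (ratio 2.66, 1.26 to 6.26) and Ms4a7 (ratio 3.23). The 9 monocyte markers summed to 2, 38, 105 and 23 UMIs, with Ly6c2 at 0 throughout, Fn1 at 0, 23, 54 and 17 UMIs and Ccr2 at 2, 11, 20 and 3 UMIs. Of the 7 neutrophil markers, Csf3r gave nearly all of the 109, 67, 196 and 146 UMIs, and Ly6g and Retnlg were at 0 in all libraries. The 7 dendritic cell markers held 6, 276, 30 and 107 UMIs, and the 276 of day 1 lay in 4 nuclei. The 10 lymphocyte markers held 2, 6, 6 and 3 UMIs.

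These markers and the members lay partly in the same nuclei. In the day 3 library 70 of 190 microglia-like nuclei held a UMI of such a marker, Csf3r and Stab1 left aside because microglia use them too. In those 70 nuclei Spp1 stood at 919 CPM (789 to 1064), Gpnmb at 454 CPM, Lyz2 at 475 CPM and Cd44 at 72.3 CPM, against 579, 257, 268 and 38.3 CPM in the whole class. Without such nuclei 78, 29, 120 and 68 remained, and the summed member level was 1154 CPM at day 3 and 912 CPM at day 7. The log2 ratio of day 3 to sham was then 3.19 for Spp1 in place of 4.38, 3.00 for Gpnmb in place of 4.62 and 3.05 for Lyz2 in place of 4.68. For Cd44 it was -0.12 in place of 1.87, with both sums at or under the floor of 3 UMIs, so it gives no direction. In this setting 7 of 9 members stood at least 2-fold above sham. Which of these nuclei came from microglia and which from other myeloid cells was not tested.

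Outside microglia-like nuclei, each member had its own set of classes. Spp1 in sham was highest in vascular leptomeningeal cell-like nuclei (113 CPM, 6 UMIs), endothelial cell-like nuclei (45.3 CPM) and microglia-like nuclei (27.9 CPM), with overlapping intervals. In the day 3 library microglia-like nuclei (579 CPM) stood above vascular leptomeningeal cell-like nuclei (239.98 CPM, 162 to 343), and these above oligodendrocyte-like (69.3 CPM), endothelial cell-like (61.5 CPM) and astrocyte-like nuclei (60.3 CPM), whose intervals overlapped. In the day 7 library microglia-like (330.1 CPM) and vascular leptomeningeal cell-like nuclei (238 CPM, 14 UMIs) overlapped. Both of the small vascular classes had high values at day 1 from a handful of nuclei, since all 26 Spp1 UMIs of the 3 vascular leptomeningeal cell-like nuclei lay in 1 nucleus.

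**Figure D4:**
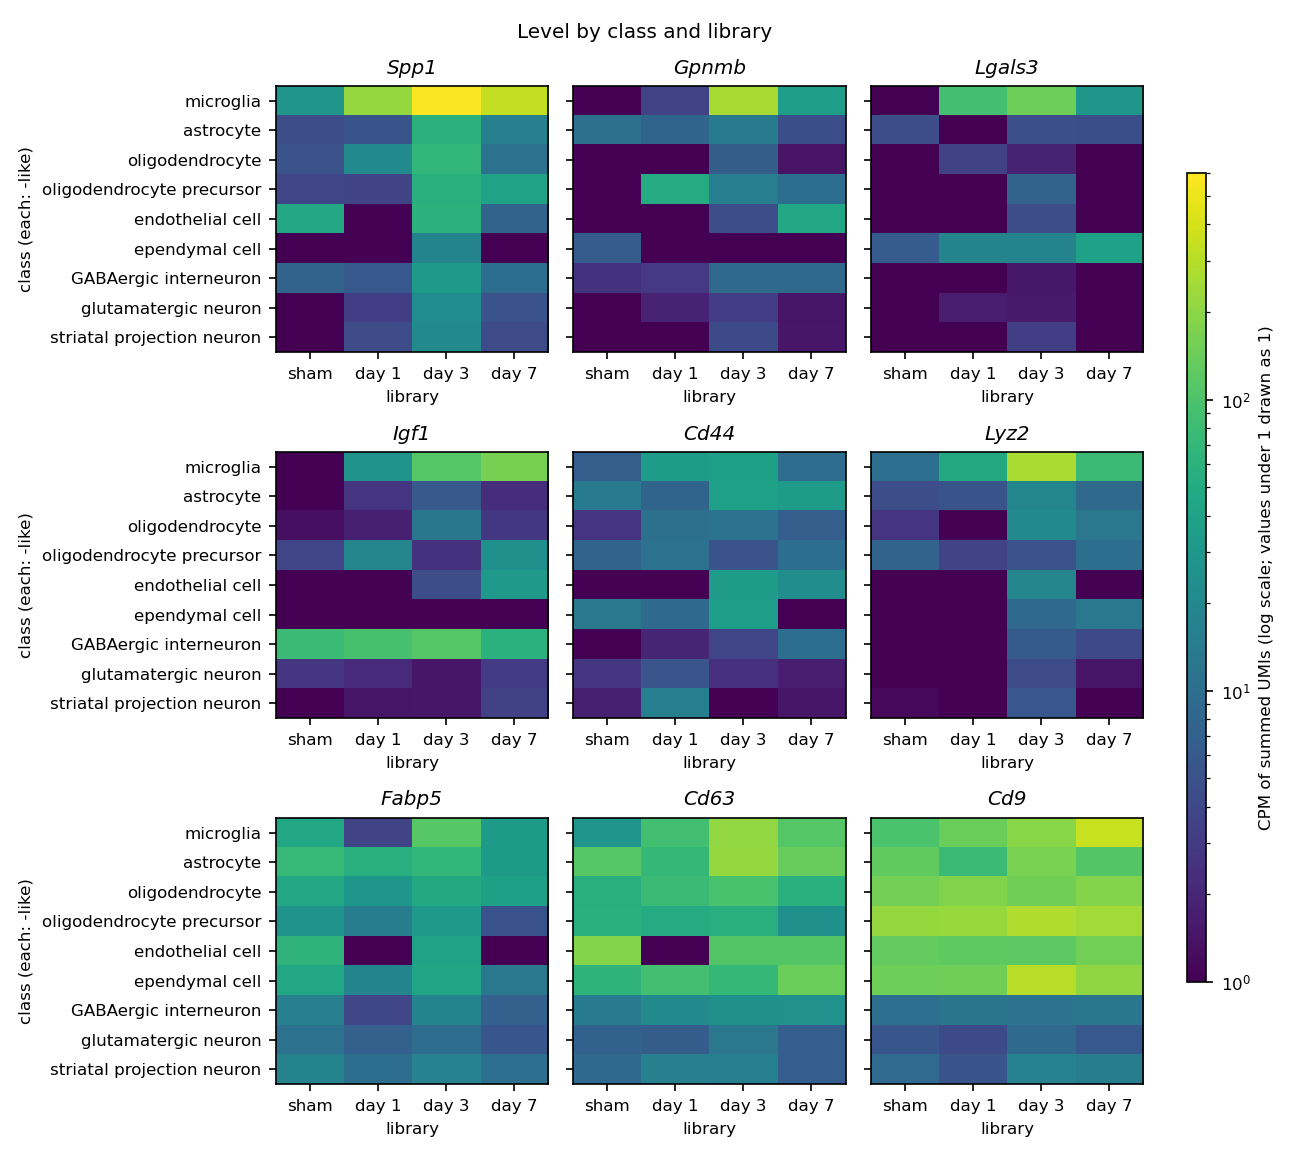
Level of each member (1 panel each) by class (rows, each named by its markers) and library (columns), as colour on a log scale of CPM of summed UMIs, with values under 1 CPM drawn at the lowest colour. Gpnmb, Lgals3 and Lyz2 are brightest in microglia-like nuclei of day 3, Igf1 in GABAergic interneuron-like and microglia-like nuclei, and Cd9 across oligodendrocyte lineage, ependymal cell-like and microglia-like nuclei.

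Spp1 was also counted per nucleus. At day 3 Spp1 came to 135 UMIs per 100 microglia-like nuclei (119 to 153) and 103 per 100 vascular leptomeningeal cell-like nuclei (69.8 to 148). Endothelial cell-like nuclei held 37.0 per 100 (24.4 to 53.8). Spp1 came to 16.7 per 100 oligodendrocyte-like, 18.7 per 100 striatal projection neuron-like, 21.5 per 100 glutamatergic neuron-like, 22.7 per 100 oligodendrocyte precursor-like, 22.9 per 100 astrocyte-like and 25.6 per 100 GABAergic interneuron-like nuclei. In sham the same 6 classes held 0.560 to 7.03 per 100. These 6 classes of the day 3 library thus lay between 16.7 and 25.6 per 100 nuclei, and the part of free RNA in them was not tested. Not every class lay in that range. Spp1 was lower per nucleus in unnamed neuronal (78 UMIs in 598 nuclei), neuroblast-like (3 in 20) and ependymal cell-like nuclei (2 in 20). The unnamed class held 12 in 69. In oligodendrocyte-like nuclei of day 3, 73 Spp1 UMIs lay in 72 nuclei, that is nearly always 1 UMI each, whereas the 257 of microglia-like nuclei lay in 56.

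Gpnmb at day 3 stood at 257 CPM in microglia-like nuclei and at 15.5 CPM in oligodendrocyte precursor-like (6 UMIs) and 14.2 CPM in astrocyte-like nuclei (12 UMIs), the next in order. In sham its highest class was astrocyte-like, with 10.5 CPM from 7 UMIs. At day 1 oligodendrocyte precursor-like nuclei led with 51.6 CPM (28.2 to 86.6), from 14 UMIs in 4 of 36 nuclei, and at day 7 endothelial cell-like nuclei held 46.3 CPM from 6 UMIs in 1 nucleus. Lgals3 (146 CPM against at most 29.5 CPM in a class led by mitochondrial genes) and Lyz2 (268 CPM against 20.9 CPM in oligodendrocyte-like nuclei) were as clearly highest in microglia-like nuclei of day 3.

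Igf1 was also detected in neurons. In GABAergic interneuron-like nuclei it stood at 78.1 CPM in sham (91 UMIs in 41 nuclei), 92.8 CPM at day 1, 112 CPM at day 3 and 60.1 CPM at day 7, with ratios to sham of 1.19 (0.883 to 1.60), 1.44 (1.10 to 1.89) and 0.770 (0.545 to 1.08). Within that class a cluster led by Vip and Adarb2, markers of a type of interneuron, held most of it, with Igf1 at 242 CPM in sham, 195 CPM at day 1, 302 CPM at day 3 and 256 CPM at day 7. In the day 3 library the interneuron-like level (112 CPM) and the microglia-like level of Igf1 (110.3 CPM) overlapped. In the day 7 library microglia-like nuclei stood above (163 against 60.1 CPM). Sham and day 1 had the interneuron-like class highest.

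Cd44 was seen in many classes. In astrocyte-like nuclei it stood at 13.5 CPM in sham (9 UMIs), 7.86 CPM at day 1 (3 UMIs), 39.0 CPM at day 3 (33 UMIs in 16 nuclei) and 34.6 CPM at day 7 (15 UMIs in 7 nuclei), with ratios of 2.89 (1.35 to 6.86) at day 3 and 2.57 (1.05 to 6.65) at day 7. Astrocyte-like, microglia-like, ependymal cell-like and endothelial cell-like nuclei, at 34.1 to 39.0 CPM, could not be told apart at day 3. In striatal projection neuron-like nuclei Cd44 stood 9.12-fold above sham at day 1 (3.77 to 26.6), with 33 UMIs in 6 of 133 nuclei and 60.6% of them in 1 nucleus.

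Fabp5 at day 3 was highest in a class without a name, led by Ttr and mitochondrial genes, with 63.7 CPM in sham, 64.0 CPM at day 1, 297 CPM at day 3 and 159.8 CPM at day 7. Microglia-like nuclei came next at day 3, with 115 CPM, and overlapped astrocyte-like nuclei (68.6 CPM). Cd63 at day 3 did not set microglia-like nuclei (212 CPM) apart from the unnamed class (230 CPM), astrocyte-like (219 CPM) or vascular leptomeningeal cell-like nuclei (216 CPM). In sham the order was different, with endothelial cell-like nuclei highest (181 CPM) and microglia-like nuclei at 27.9 CPM. Cd9 was highest in oligodendrocyte precursor-like nuclei in sham and day 1, in ependymal cell-like nuclei at day 3 (299 CPM, 207 to 418) and in microglia-like nuclei at day 7, and each time the leading class overlapped the next. Its level was 218, 225, 281 and 245 CPM in oligodendrocyte precursor-like and 159, 180.0, 151 and 183 CPM in oligodendrocyte-like nuclei, and no ratio to sham in either class had an interval that left out 1. At day 7 microglia-like nuclei (349.7 CPM) overlapped vascular leptomeningeal cell-like nuclei (255 CPM).

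Counted the same way in other classes, fewer members stood above sham by that fold. In astrocyte-like nuclei 3 of 9 stood at least 2-fold above sham at day 3 (3.30% of all genes), namely Spp1, Cd44 and Lyz2. The same 3 did so at day 7 (3.29%), where Spp1 rested on 7 UMIs against 3 in sham and Lyz2 on 4 against 3. All 9 members are counted here, while the share of all genes is over those with at least 20 UMIs, which 3 to 8 members reached in these classes at day 3. Oligodendrocyte-like nuclei had 4 of 9 at day 3 (4.54%), Spp1, Igf1, Cd44 and Lyz2, and glutamatergic neuron-like nuclei 4 of 9 (1.87%), Spp1, Gpnmb, Lgals3 and Lyz2. GABAergic interneuron-like nuclei had 3 (2.02%), oligodendrocyte precursor-like nuclei 1 (6.69%) and endothelial cell-like nuclei 0 (10.1%) at day 3. Spp1 was among these members in 5 of these 6 classes at day 3, and in the same library it was 11.3-fold above sham in droplets of 1 to 1000 UMIs.

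In droplets of 1 to 1000 UMIs, 2, 4 and 3 of 9 members stood at least 2-fold above sham at day 1, day 3 and day 7 (3.45%, 2.83% and 3.45% of all genes). Spp1 stood at 34.2 CPM in sham, 108 CPM at day 1, 385 CPM at day 3 and 124 CPM at day 7, with ratios of 3.15 (2.80 to 3.56), 11.3 (10.2 to 12.5) and 3.62 (3.23 to 4.07). Lyz2 stood at 10.2, 10.2, 121 and 45.7 CPM, with ratios of 11.8 (9.78 to 14.4) at day 3 and 4.48 (3.65 to 5.55) at day 7. Gpnmb stood at 2.82, 3.37, 29.4 and 9.11 CPM and Lgals3 at 6.47, 13.4, 26.7 and 9.75 CPM, and the ratio of day 3 to sham was 10.4 (7.25 to 15.5) for Gpnmb and 4.12 (3.21 to 5.36) for Lgals3. Spp1, Gpnmb, Lgals3 and Lyz2 thus had the order day 3 highest in droplets as in microglia-like nuclei. As in bulk tissue, more cells of a type and more RNA per cell cannot be told apart in these droplets.

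**Figure D5:**
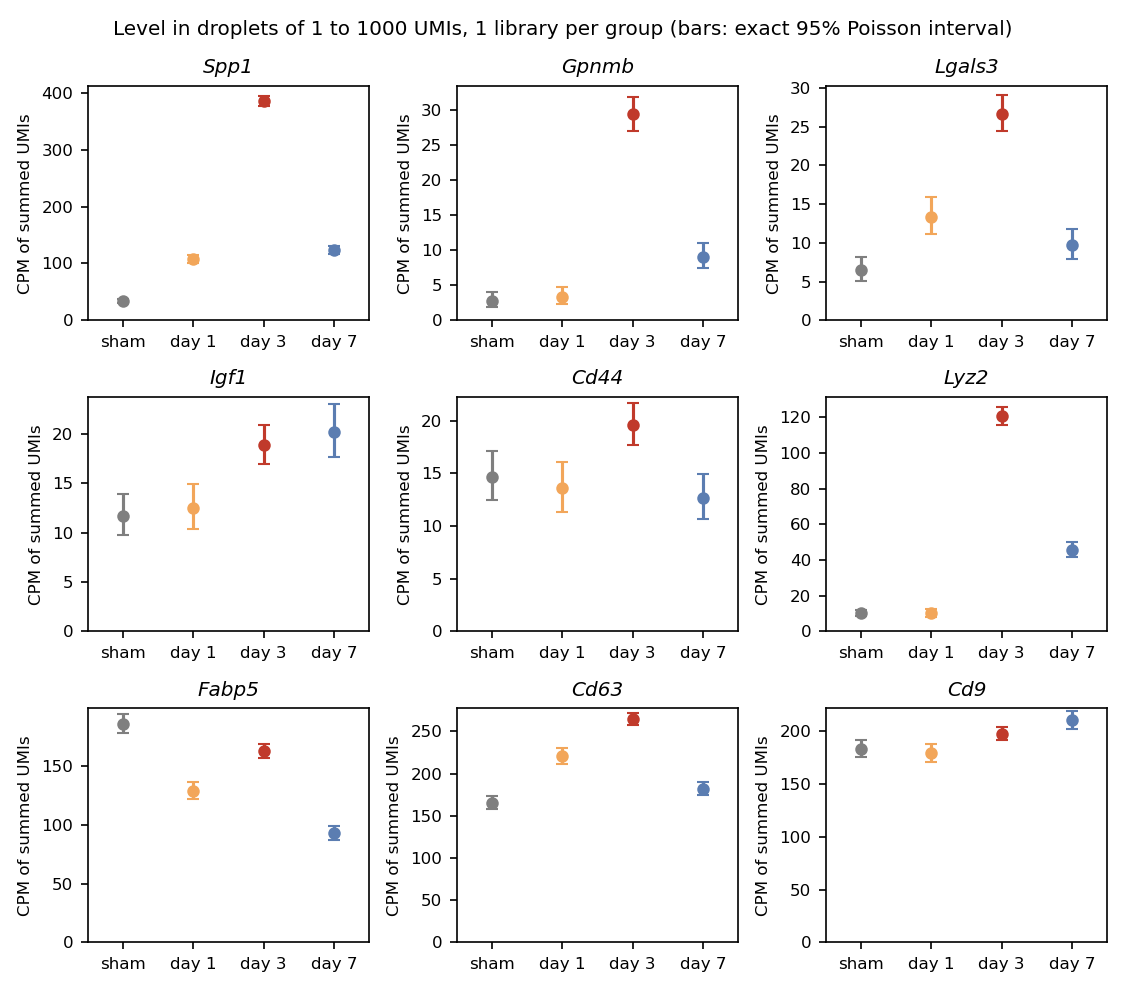
Level of each member in droplets of 1 to 1000 UMIs, in CPM (vertical axis from 0, scaled per gene), for the 4 libraries (horizontal axis), with points for the level and bars for the exact 95% Poisson interval. Spp1 is at 385 CPM in the day 3 library against 34.2 CPM in sham, whereas Cd9 lies between 179 and 211 CPM in all libraries.

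The other members stood less than 2-fold above sham in droplets of 1 to 1000 UMIs. Igf1 stood at 11.7, 12.5, 18.9 and 20.2 CPM, Cd44 at 14.7, 13.6, 19.6 and 12.7 CPM, Cd63 at 165, 220.5, 265 and 182 CPM and Cd9 at 183, 179, 197 and 211 CPM in sham, day 1, day 3 and day 7. Fabp5 was lower in the injured libraries, with 186, 129, 163 and 93.0 CPM and a ratio of 0.4996 (0.463 to 0.539) at day 7. In droplets of 1 to 100 UMIs alone Cd44, with 2 UMIs in sham, stood at 5.55, 4.86 and 4.71 relative to sham, with lower limits of 1.29, 1.06 and 1.00, against 0.927, 1.34 and 0.863 in all of them, so its direction at day 1 and day 7 turned with the droplets taken. Igf1 there stood at 2.25 (1.08 to 5.00) at day 3 and 2.57 (1.25 to 5.69) at day 7. The droplet level of Fabp5 lay above its microglia-like level in every library (45.3, 3.73, 115 and 32.7 CPM), as did that of Cd63 (27.9, 85.9, 212 and 111 CPM). Gpnmb at day 3 was the reverse, with 257 CPM in microglia-like nuclei and 29.4 CPM in droplets. Most Spp1 in the files lay outside called nuclei, since droplets of 1 to 1000 UMIs held 85.6% to 88.4% of its UMIs in the 4 libraries and microglia-like nuclei held 1.84%, 4.71%, 3.05% and 6.36%. For Gpnmb at day 3 these shares were 71.8% and 14.4%.

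The partners of the members were taken from lists of the osteopontin, galectin, insulin-like growth factor and tetraspanin systems, with counts over those genes that could be measured in microglia-like nuclei. In these and the later lists a measured gene had more than 3 UMIs in either sum. The shares of all genes are over those with at least 20 UMIs in the pair, a stricter filter. Between day 3 and sham, 11 of 12 osteopontin and CD44 partners were above sham (median log2 ratio 0.54) and 3 at least 2-fold, the integrin chains Itga8 at 3.23 (0.689 to 30.4), Itga5 at 2.59 (0.942 to 8.82) and Itga4 at 2.26 (0.711 to 9.44), each with an interval that held 1. Itgb1 stood at 1.75 (1.08 to 2.93). Of the galectin list 4 of 4 were above sham (median 0.96) and 2 at least 2-fold, Lgals1 at 4.85 (1.71 to 19.0) and Lgals9 at 2.09 (1.28 to 3.54). Of the IGF axis 6 of 9 were above (median 0.26) and 2 at least 2-fold, the binding proteins Igfbp7 at 3.07 (1.02 to 12.4) and Igfbp2 with 14 UMIs against 0 in sham, and the receptor Igf1r, at 1.20 (0.870 to 1.66), could not be told from sham. The other tetraspanins had a median of 0.29, with 6 of 8 above sham and 1 at least 2-fold, Cd53 at 2.95 (1.41 to 6.89) and Cd81 at 1.53 (1.04 to 2.28). The intervals of Rdx (1.60), Insr (1.15), Lgals8 (1.49), Tspan14 (1.28), Tspan7 (0.970) and Tspan4 (0.711) held 1. Over all genes tested 59.5% were above sham, 9.72% at least 2-fold, and the median was 0.14.

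Of the MiT/TFE transcription factors, known regulators of lysosomal genes, Mitf stood at 282, 276, 565 and 752 CPM in sham, day 1, day 3 and day 7, with ratios to sham of 2.00 (1.55 to 2.61) at day 3 and 2.67 (2.06 to 3.48) at day 7, while at day 3 Tfe3 (1.07, 0.563 to 2.07) and Tfeb (0.872, 0.492 to 1.57) had intervals that held 1. At day 3, 2 of these 4 stood at least 2-fold above sham (9.72% of all genes), Mitf and Tfec, the latter with 0 UMIs in sham. A list of 25 other reactive myeloid genes had 14 of 21 measured genes at least 2-fold above sham at day 3 (9.72% of all genes), none 2-fold below (7.00%), and a median log2 ratio of 1.38. At day 7 it had 13 of 23 (6.29%) and a median of 1.13. Its leading genes at day 3 were Plin2 at 23.9 (9.15 to 89.0), Apoe at 7.30 (6.04 to 8.89) and Anxa2, a membrane binding protein, at 7.11 (2.23 to 36.3). At day 1, 6 of 18 were at least 2-fold above (7.09% of all genes) and the median was 0.52. The 12 homeostatic genes had medians of -0.58, 0.14 and 0.01 at day 1, day 3 and day 7, with Fcrls 2.25-fold above sham at day 3 (1.68 to 3.04) and Selplg at 0.676 (0.529 to 0.863), while the intervals of Olfml3 (1.60) and Tmem119 (0.708) held 1. As a class, microglia-like nuclei of day 3 held homeostatic genes near the sham level, while those nuclei that carried Spp1 held P2ry12, Cx3cr1, Csf1r and Siglech below the others. Proliferation genes were nearly absent in sham (2 UMIs) and held 89 UMIs at day 3, with Top2a at 37, Mki67 at 20 and Cenpf at 19 UMIs against 1, 0 and 1. Other fatty acid binding proteins held 3, 2, 22 and 5 UMIs.

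Likeness of pattern was measured by Pearson's r of log2(CPM + 10) over the 47 sums of a class in a library with at least 50000 UMIs, points that share libraries and depth, and it is given with no test. The genes nearest to Spp1 were Gm26740 (r = 0.80), Abca9 (0.79), Tgfbr1 (0.78), Cmtm7 (0.76) and Smchd1 (0.75). The nearest to Gpnmb were Fes (0.65), Tpcn2 (0.65), the lysosomal protease Ctsb (0.64), Lilrb4a (0.63) and Lyz2 (0.63). The r of Spp1 with Gpnmb was 0.43, and with the other members it ran from 0.17 for Fabp5 to 0.63 for Lyz2. Tgfbr1, the receptor of transforming growth factor beta, stood at 1285, 642, 1067 and 1075 CPM in microglia-like nuclei of sham, day 1, day 3 and day 7, so it was near to Spp1 across classes while lower in the injured libraries than in sham. Lyz2 was the only member among the 5 genes nearest to Gpnmb, and no member was among the 5 nearest to Spp1.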

How the data were processed

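Per the labels, 4 libraries of nuclei (sham control and 1, 3 and 7 days after MCAO) were profiled with droplet-based snRNA-Seq, each from 3 pooled hemispheres. The authors mapped reads to GRCm38 with STAR (2.7.3a in the submitters' processing notes), took GENCODE vM8 genes, introns included, and deposited raw UMI counts of every barcode, with no normalization. Deposited counts were used as they stood.

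Nuclei were told from empty droplets, library by library, with a rewritten emptyDrops procedure (ambient profile from barcodes of at most 1000 UMIs, 10000 Monte Carlo profiles, barcodes above the knee kept, false discovery rate 0.001). Doublets were taken by Scrublet score at 0.8% per 1000 nuclei. Clustering used Seurat 5.3.0 in R 4.3.3 with sctransform 0.4.2, anchor integration, 30 principal components and 2943 of 3000 variable genes, since 57 members and listed genes were left out. Clusters were named by markers. UMIs were summed per class and library and given as CPM with exact Poisson intervals. Ratios carry exact conditional binomial intervals and shares Clopper-Pearson intervals, all at 95% and for counting error only. Sums under 3 UMIs were set to 3 in log2 ratios and in folds over that floor, and other classes got no ratio where both sums held at most 3 UMIs. Without replicates no p-value was computed. Totals of 23285489 to 42963698 UMIs set the depth.

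The members, gene lists and marker lists were chosen with earlier results of these data known. Named genes are the members, the 3 largest rises and 2 largest falls of a list at day 3 by ratio among genes with at least 20 UMIs in the pair of sums, the 5 genes of highest lower limit and the 5 most like Spp1 and Gpnmb. P2ry12, Cx3cr1, Csf1r, Siglech, Tgfbr1, Ctsb, Igfbp2, Itga8, Itga4, Tfec and Igf1os were named after their values had been seen. A gene that the rule names is not reported here. Scripts were tested on simulated data. Alternatives changed the nuclei, doublets, classes, depth, scaling with edgeR 4.0.16, floor, filter and free RNA.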

Additional observations from a re-analysis of the deposited data

Results flagged for a closer look

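Each result here was picked because a member lay on opposite sides of sham in another class and in microglia-like nuclei of the same library. None of these differences between classes was tested, and each class is 1 sum per library.

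Cd63 at day 1 was 3.08-fold above sham in microglia-like nuclei, a log2 ratio of 1.62. In nuclei taken by their own marker UMIs, most of them outside the microglia-like class, the log2 ratio of Cd63 was -0.80. In the same library its ratio was 0.620 (exact 95% interval 0.384 to 0.973) in astrocyte-like nuclei, 0.248 (0.108 to 0.518) in the unnamed class led by mitochondrial genes, and 0 in endothelial cell-like nuclei, where 6 nuclei held 0 UMIs and the upper limit was 0.669. At day 3 Cd63 was 7.60-fold above sham in microglia-like nuclei and stood at 0.590 (0.362 to 0.979) in endothelial cell-like nuclei.

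Cd44 at day 3 stood at 0.517 (0.264 to 0.983) in unnamed neuronal nuclei and at 5.50 (1.30 to 49.1) in microglia-like nuclei, where sham held 2 UMIs. The microglia-like log2 ratio went from 1.87 to -0.09 with nuclei thinned to 1000 UMIs, where the sham sum was set to the floor of 3 UMIs. It went to -0.12 without nuclei holding a UMI of another blood or border cell marker, where both sums were at or under that floor. Neither value gives a direction.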

How the results depend on the processing

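No paired analysis was possible because each group had 1 library, and for the same reason none was left out. Of 284 recomputed main values 232 stayed within the stated limits and 52 moved, and of 378 values of single members 338 stayed, 34 moved and 6 turned. Apart from Cd63 with own-marker nuclei, the turned values had a sum set to the floor of 3 UMIs and give no direction. TMM scaling shifted log2 ratios by at most 0.105. The causes were not tested. Taking nuclei by their own marker UMIs, with no clustering, gave 198, 192, 424 and 235 nuclei in sham, day 1, day 3 and day 7, most of them outside the microglia-like class.

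With own-marker nuclei the members' median log2 ratio was 0.37 at day 1 (count 3) and 0.93 at day 7 (count 4), the homeostatic median was -1.07 at day 1, the other reactive median 0.77 at day 3, the summed level 159, 152, 467 and 291 CPM in the 4 libraries, the sham share 7.07% and Cd63 turned to -0.80 at day 1. Without the fullest nucleus the day 1 median was 0.41 with a count of 3, the sham share 0%, and the summed level 495 CPM at day 1 and 989 CPM at day 7. With only nuclei over 2000 UMIs the homeostatic median at day 1 was -0.03, the other reactive median at day 3 was 1.96, the summed level 128 CPM in sham and 2114 CPM at day 3, and the share 0% in sham and 58.8% at day 3.

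Libraries merged without integration gave an other reactive median of 0.95 and a homeostatic median of -0.33 at day 3, and summed levels of 329 CPM in sham, 1049 CPM at day 1 and 1563 CPM at day 7. Thinning to 1000 UMIs gave an other reactive median of 0.99 at day 3, and summed levels of 315, 848 and 1375 CPM in sham, day 1 and day 7. The shares were 27.9% at day 3, in another draw than the 28.9% of the report, and 20.8% at day 7. Cd44 at day 3 was then -0.09 and Lgals3 at day 7 -0.11, each with a sham sum set to the floor of 3 UMIs, so neither gives a direction. The mean of single nuclei gave 0.97 for the other reactive median at day 3 and 330.2, 777 and 1438 CPM in sham, day 1 and day 7. Adding 0.5 UMI to every sum gave a members' median of 2.72 at day 7.

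Free RNA subtracted in proportion to UMIs gave 115 CPM in sham and 2080 CPM at day 3. It left both Fabp5 sums of day 1 and sham under the floor of 3 UMIs, so the 0.07 then obtained gives no direction. An equal amount of free RNA subtracted from each nucleus gave 122, 1637 and 1022 CPM in sham, day 3 and day 7. Fabp5 at day 1 was then 0.10, again with both sums under the floor. With either subtraction the sign of Fabp5 could not be read. With doublets kept the summed level at day 3 was 1773 CPM. Without nuclei holding a UMI of another blood or border cell marker, a setting added after seeing the data, it was 1154 CPM at day 3 and 912 CPM at day 7. The share was then 24.2% at day 3. Cd44 at day 3 was -0.12 in this setting, with both sums at or under the floor of 3 UMIs, so it gives no direction. Droplets of 1 to 100 UMIs gave summed levels of 563, 658, 1058 and 672 CPM, and those above 100 and up to 1000 UMIs gave 1243 CPM at day 3.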
